A study of Mus musculus with 6 samples.

Results

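The genes described here are 9 members of the proteolytic system that cells carry on and around their surface: the inhibitors Timp1, Timp2 and Timp3, the secreted metalloproteinases Mmp2 and Mmp9, the membrane-anchored metalloproteinases Mmp14 and Mmp15, and the sheddases Adam10 and Adam17. The rule names the genes and uses no measured value, but it was drawn up with earlier results of these data known, and all 9 were found once among the 55487 genes of the count table. Of these 9, 8 were expressed highly enough to be tested, as were 12669 genes in all. Mmp9 was not, with 4 to 26 counts per library, and no member was below detection, taken as at most 3 counts in every library.

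B16F10 is a mouse melanoma cell line kept in culture. Cells were infected with lentivirus carrying a scrambled control shRNA (shCtr, 3 libraries) or the hairpin numbered 2 against OSGEP (shOSGEP, 3 libraries), and the study selected infected cells with puromycin. OSGEP is the enzyme within the KEOPS complex, which modifies tRNAs with t6A beside their anticodon. The labels give the genotype as WT for shCtr and KD OSGEP for shOSGEP, with no other allele or agent. The libraries of a group came from separate infections of the same line, so p-values measure the spread between infections of 1 line with 1 hairpin.

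Matrix metalloproteinases are zinc enzymes that cut collagens, laminins and other matrix proteins, and are made with a prodomain that keeps them inactive. The tissue inhibitors of metalloproteinases (TIMPs) block the active enzymes. At the cell surface MMP14 binds TIMP2, and this complex draws in and activates pro-MMP2, so that TIMP2 takes part in both activation and inhibition. TIMP3 binds to the extracellular matrix and, unlike most TIMPs, inhibits ADAM17, the enzyme that releases TNF and ligands of the EGF receptor. ADAM10 cuts Notch receptors, cadherins and other surface proteins. In melanoma these enzymes are known for their part in invasion.

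The members' promoters are shown for the 3 inhibitors, because Timp3 differed between the groups and its relatives served as the comparison. Each window runs from 250 bases before to 50 bases after the transcript start (RefSeq, GRCm38.p6), with matches to the GC box (GGGCGG, either strand) in capitals. Promoter windows were found for 7 members in this source. The Timp2 window lies wholly inside the gene model of Timp2 given below, which starts further upstream, at 118355740.
Timp3, chr10:86300162-86300461, plus strand: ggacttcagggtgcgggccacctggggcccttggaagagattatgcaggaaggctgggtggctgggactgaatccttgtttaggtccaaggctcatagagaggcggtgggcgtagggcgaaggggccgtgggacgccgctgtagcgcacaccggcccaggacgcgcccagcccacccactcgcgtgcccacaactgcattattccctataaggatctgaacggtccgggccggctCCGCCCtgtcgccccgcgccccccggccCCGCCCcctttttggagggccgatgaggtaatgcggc
Timp2, chr11:118355362-118355661, minus strand: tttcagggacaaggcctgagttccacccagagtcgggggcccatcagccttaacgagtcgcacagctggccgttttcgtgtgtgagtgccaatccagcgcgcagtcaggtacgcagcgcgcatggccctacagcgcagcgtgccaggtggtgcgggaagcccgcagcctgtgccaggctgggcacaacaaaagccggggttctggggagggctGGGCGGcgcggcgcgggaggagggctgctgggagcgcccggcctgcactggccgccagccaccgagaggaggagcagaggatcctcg
Timp1, chrX:20869916-20870215, plus strand: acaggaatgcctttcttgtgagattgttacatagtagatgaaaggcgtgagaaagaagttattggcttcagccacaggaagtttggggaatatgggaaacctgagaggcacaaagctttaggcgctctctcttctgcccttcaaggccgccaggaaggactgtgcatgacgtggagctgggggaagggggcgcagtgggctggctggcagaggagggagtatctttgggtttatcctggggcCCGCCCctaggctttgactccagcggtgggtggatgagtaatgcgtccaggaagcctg
The Timp3 window held 2 GC boxes, and those of Timp1 and Timp2 held 1 each. Among the windows of the other members, that of Adam10 held 3, that of Mmp14 held 2, and those of Mmp15 and Adam17 held 1 each. A GC box occurred in 35.7% of all 32851 windows of this length. Searches on both strands for the AP-1 motif (TGANTCA, in 7.81% of windows) and the core of the amino acid response element (TGATGNAA, 3.97%) found no match in the windows of these 3 genes or in those of Mmp14, Mmp15, Adam10 and Adam17. None of these motifs contains another, and a match or its absence here describes only these windows.

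The sequence that the study lists for the hairpin is shown because all comparisons rest on it.
shOSGEP hairpin 2, listed sequence: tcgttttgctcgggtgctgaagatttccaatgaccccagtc
It matched 7 of 8 annotated Osgep transcripts in full, and no stretch of 21 bases of it occurred in any transcript of the 9 members, on either strand. Shorter stretches were not searched, so off-target action of the hairpin on the members was not tested. In CPM, counts relative to the TMM-scaled library size, Osgep was at 20.6, 58.6 and 21.8 in the shCtr libraries and at 4.28, 0.542 and 5.52 in the shOSGEP libraries, so each library lay in the direction of its label. Its Log2FC (log2 fold change, shOSGEP over shCtr) was -3.29 (SE 0.876, unadjusted p = 0.00524, adjusted p = 1.00 in edgeR's quasi-likelihood test).

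The libraries held 18915587 to 29487384 counts, so that 3 counts correspond to 0.116 to 0.147 CPM. In the pair numbered 2 each library stood apart from its group. The shCtr library had a TMM factor of 0.690, where the other 5 libraries had 1.04 to 1.14, and its levels followed the GC content of transcripts. The summed level of 10 melanocytic markers was 3720 CPM in shOSGEP replicate 2, against 16100 to 31700 CPM in the other 5 libraries. All 10 of these markers were expressed highly enough to be tested. Keratinocyte and T-cell markers were at no more than 3 counts in every library, for all 6 and all 5 genes. Results are therefore also given without replicate 2. In bulk RNA, fewer cells of a type and less RNA per cell cannot be told apart.

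Of all members, Timp3 alone was separated by group. Timp3 (ENSMUSG00000020044, chromosome 10, 86300372 to 86349506, plus strand, GRCm38) was at 65.2, 32.0 and 51.4 CPM in shCtr replicates 1, 2 and 3 (1535, 650 and 1115 counts). In shOSGEP it was at 255, 471 and 114 CPM (5479, 12143 and 2679 counts). Every shOSGEP library was above every shCtr library, and the widest gap was in the pair numbered 2, which held both the lowest and the highest value. The means were 49.5 ± 16.7 CPM and 280 ± 180 CPM (SD, n = 3 each). The Log2FC was 2.50 (SE 0.600, 95% interval 1.12 to 3.87), a 5.65-fold higher level in shOSGEP, with an unadjusted p of 0.00293 and an adjusted p of 1.00 over 12669 genes in edgeR. The exact permutation test over libraries gave p = 0.1 (two-sided), the smallest that 3 against 3 can reach. By unadjusted p Timp3 ranked 9 among all tested genes, and by Log2FC it ranked 58 from the top.

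**Figure D1:**
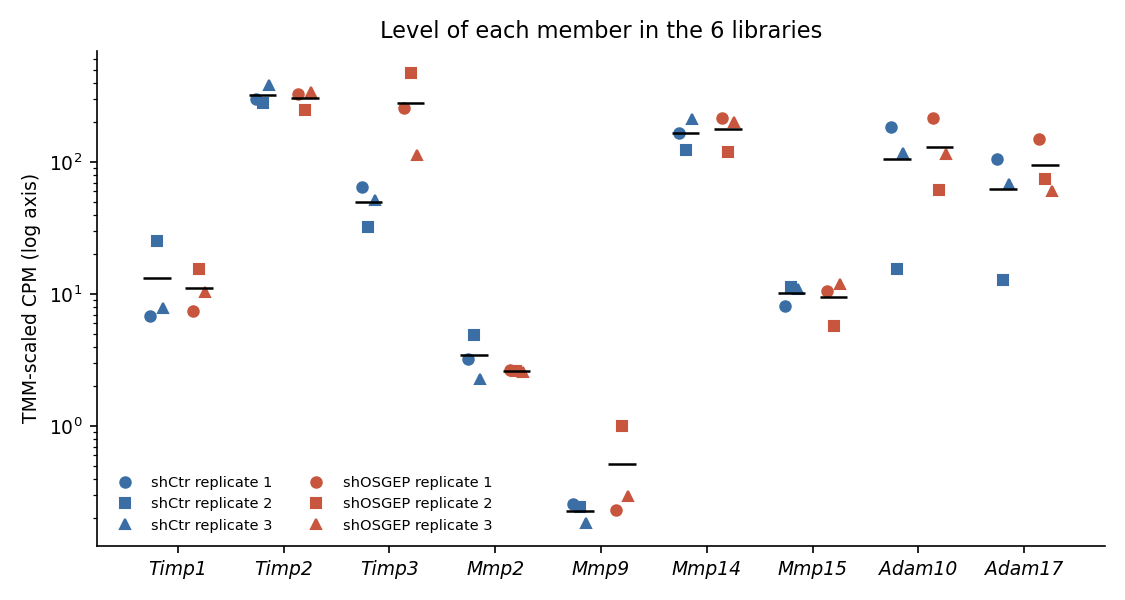
Level of each of the 9 members in TMM-scaled CPM (log axis) in the 3 shCtr libraries (blue) and the 3 shOSGEP libraries (red), with the replicate number as the marker shape and a bar at each group mean. Timp3 shows no overlap between groups, from 32.0 to 65.2 CPM in shCtr and from 114 to 471 CPM in shOSGEP, and the groups overlap for the other 8.

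The study took genes as changed at a Log2FC beyond 0.5 with an unadjusted p under 0.05. By this threshold 1 of the 8 tested members passed, Timp3, and it was higher in shOSGEP, where 1.59% of all tested genes passed in that direction, 0.426% in the other and 2.02% in either. None of the 8 had an adjusted p under 0.05 in edgeR, as for all tested genes (0%), and Timp3 was the only member with an unadjusted p under 0.05. Of all tested genes 6.36% had groups without overlap, 3.49% with shOSGEP higher. DESeq2 gave Timp3 an adjusted p of 0.0551, where 0.113% of genes passed 0.05. Timp3 was higher within each pair of same-numbered libraries (log2 ratios 1.97, 3.88 and 1.14), and without the pair numbered 2 its Log2FC was 1.66 (unadjusted p = 0.01 in edgeR). Being higher in 3 of 3 pairs was true of 17.6% of all tested genes. Without shOSGEP replicate 2 alone the Log2FC was 1.90, and without shCtr replicate 2 alone it was 2.26. Over 19 alternative fits it ranged from 1.66 to 2.90, and the study threshold was passed in each. With the replicate numbers as a block it was 2.30, and again Timp3 was the 1 member past the threshold, which 2.94% of all genes then passed.

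The gene model of Timp3 lies inside that of Syn3 on the opposite strand and shares 1733 exonic bases with it, and 21.9% of the 31-base words of Timp3 transcripts also occur in another gene, most often Syn3. The library kit was not stated to keep the strand. Syn3 held 27, 79 and 30 counts in shCtr and 23, 37 and 20 in shOSGEP, far fewer than Timp3, with a Log2FC of -0.93 (SE 0.653). Among markers of other cell types, the 8 fibroblast markers had a summed level of 5.16 to 11.2 CPM in shCtr and 13.2 to 28.3 CPM in shOSGEP. Of these 8, only Pdgfra and Pdgfrb were tested, and Dcn and Thy1 had no count in any library. The 8 leukocyte markers summed to 5.67 to 9.73 CPM in shCtr and 4.61 to 5.94 CPM in shOSGEP with Ptprc, Adgre1, Itgam and Mrc1 at 0, and the 6 endothelial markers to 2.91 to 7.57 and 2.94 to 5.81 CPM with Cdh5 and Kdr at 0. The part of these markers and of the low melanocytic markers of shOSGEP replicate 2 in the Timp3 difference was not tested.

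Timp2 was the most abundant inhibitor mRNA per kb, and no difference between groups passed the test. Timp2 (ENSMUSG00000017466, chromosome 11, 118301069 to 118355740, minus strand) was at 302, 280 and 384 CPM across shCtr and at 327, 250 and 339 CPM across shOSGEP. The groups overlapped fully, with the lowest and the highest value in different groups. The Log2FC was -0.08 (SE 0.384, 95% interval -0.96 to 0.80). The interval leaves room for changes of nearly 1 log2 unit in either direction. Timp1 (ENSMUSG00000001131, chromosome X, 20870166 to 20874735, plus strand), which inhibits most secreted metalloproteinases, was lower in abundance. Its shCtr libraries held 6.80, 25.2 and 7.89 CPM, and its shOSGEP libraries 7.40, 15.4 and 10.4 CPM. The highest value of each group belonged to replicate 2, and the groups overlapped. Its Log2FC was -0.26 (SE 0.626, 95% interval -1.70 to 1.17), and it was 0.28 without the pair numbered 2, so no direction can be given for Timp1.

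Levels of different genes were compared per kb of exonic length. Timp2 was at 82.6 ± 14.0 CPM per kb in shCtr, and Timp3 at 6.08 ± 2.05 (SD, n = 3), while Timp1 was at 7.66, 28.3 and 8.88 in replicates 1, 2 and 3. In shOSGEP Timp2 was at 78.3 ± 12.4, Timp3 at 34.3 ± 22.1 and Timp1 at 12.5 ± 4.57 CPM per kb. Timp3 thus made up 8.59%, 3.77% and 5.55% of the summed level of the 3 inhibitors in shCtr replicates 1, 2 and 3. In shOSGEP its share was 25.3%, 41.5% and 12.4%. The share of Timp2 was 69.0% to 86.6% in shCtr and 46.0% to 77.2% in shOSGEP, with overlap, and per kb of exonic length it was the largest share in every library. The annotated exons of Timp3 span 8144 bases and its longest coding transcript 4722, and per kb of that transcript its levels were 10.5 ± 3.54 and 59.2 ± 38.1 CPM per kb. With the longest coding transcripts as lengths, the Timp3 share was 13.4%, 6.11% and 8.83% in shCtr and 35.8%, 54.0% and 18.9% in shOSGEP, and in shOSGEP replicate 2 it exceeded the 36.5% of Timp2.

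**Figure D2:**
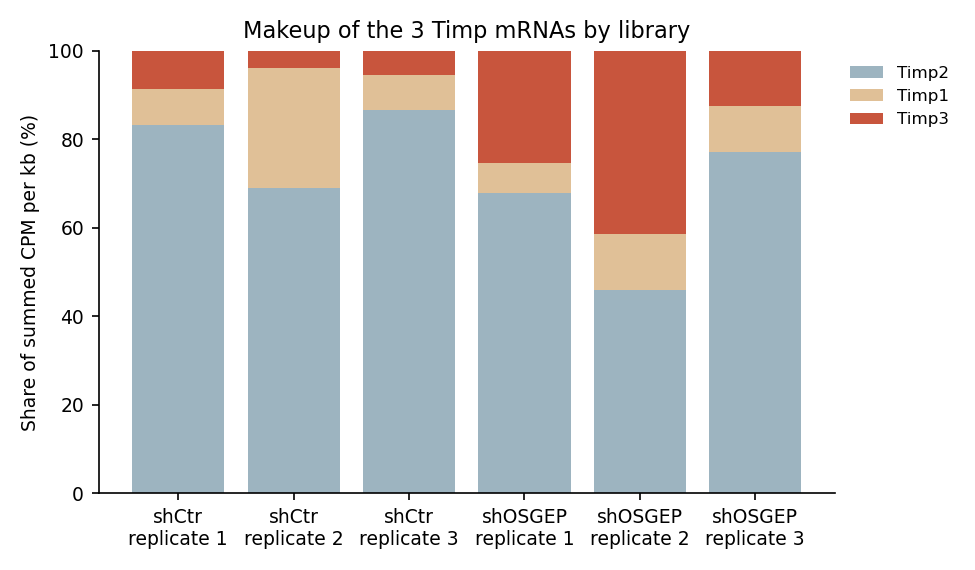
Share (%) of Timp1, Timp2 and Timp3 in their summed level in CPM per kb of exonic length, as stacked bars for each of the 6 libraries. The Timp3 segment takes 3.77% to 8.59% of the bar in shCtr and 12.4% to 41.5% in shOSGEP.

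Mmp14 was the most abundant of the metalloproteinase mRNAs per kb, and neither membrane-anchored enzyme passed the test. Mmp14 (ENSMUSG00000000957, chromosome 14, 54431612 to 54445364, plus strand), the main membrane-type collagenase and the activator of pro-MMP2, was at 165, 124 and 213 CPM in shCtr, with 217, 119 and 200 CPM in shOSGEP. The lowest value of each group was that of replicate 2, and the groups overlapped. The Log2FC was 0.09 (SE 0.425, 95% interval -0.88 to 1.07). Mmp15 (ENSMUSG00000031790, chromosome 8, 95352268 to 95375080, plus strand), another membrane-type enzyme, was at 8.12, 11.4 and 10.9 CPM among shCtr libraries, against 10.6, 5.77 and 12.0 CPM among shOSGEP libraries. Only shOSGEP replicate 2 lay clearly lower, and the Log2FC was -0.10 (SE 0.476, 95% interval -1.19 to 0.99). Without the pair numbered 2 it was 0.25. Small parts of both genes are shared with other annotated transcripts, 2.41% of the 31-base words of Mmp14 and 1.03% of those of Mmp15.

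The gelatinases, which cut denatured collagen and collagen IV of basement membranes, were scarce. Mmp2 (ENSMUSG00000031740, chromosome 8, 92827291 to 92853420, plus strand) was at 3.23, 4.92 and 2.26 CPM in shCtr (76, 100 and 49 counts) and at 2.65, 2.63 and 2.55 CPM in shOSGEP (57, 68 and 60 counts). The shOSGEP values lay within the span of the shCtr values. The Log2FC was -0.41 (SE 0.523, 95% interval -1.61 to 0.79), and -0.08 without the pair numbered 2. Mmp9 (ENSMUSG00000017737, chromosome 2, 164940780 to 164955850, plus strand) had 6, 5 and 4 counts in shCtr and 5, 26 and 7 counts in shOSGEP. Only shOSGEP replicate 2 stood higher, with a 95% exact Poisson interval of 17.0 to 38.1 counts against 1.62 to 11.7 for the 5 counts of shCtr replicate 2, both intervals covering counting error only. Fitted without a filter on low counts, Mmp9 had a Log2FC of 1.15 (SE 0.983, unadjusted p = 0.253 in edgeR). The difference in Mmp9 was within the spread between libraries.

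Adam10 and Adam17 varied more between libraries of one group than between the groups. Adam10 (ENSMUSG00000054693, chromosome 9, 70678997 to 70780229, plus strand) was at 183, 15.5 and 118 CPM across shCtr and at 214, 61.2 and 115 CPM across shOSGEP. Adam17 (ENSMUSG00000052593, chromosome 12, 21323509 to 21373632, minus strand) was at 106, 12.9 and 68.7 CPM in shCtr, with 150, 75.1 and 60.5 CPM in shOSGEP. For both genes shCtr replicate 2 was the lowest of all 6 libraries, and the groups overlapped. The Log2FC of Adam10 was 0.30 (SE 0.817, 95% interval -1.57 to 2.18), and that of Adam17 was 0.60 (SE 0.726, 95% interval -1.06 to 2.27). Without the pair numbered 2 they were 0.13 and 0.26. With the pair numbers as a block they were 0.70 and 0.91, past no threshold. Adam17 shares 311 exonic bases with Iah1 on the opposite strand, and Iah1 held 441, 1081 and 459 counts in shCtr and 861, 3518 and 878 in shOSGEP, against 263 to 3222 counts for Adam17, so part of the Adam17 reads is uncertain.

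**Figure D3:**
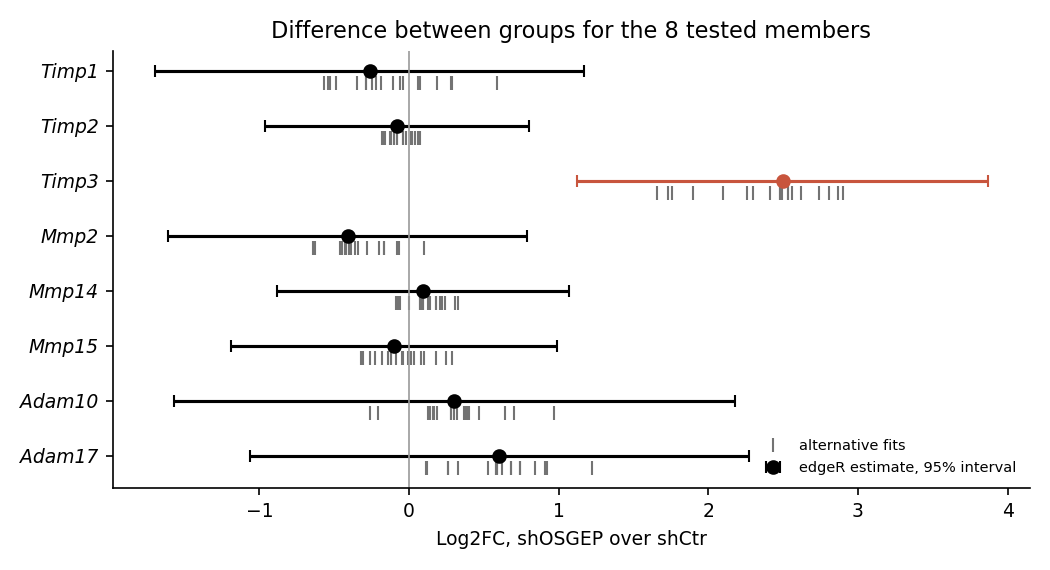
Log2FC (shOSGEP over shCtr) of the 8 tested members in edgeR as points with 95% intervals, and the Log2FC under 19 alternative fits as grey ticks under each point. The interval of Timp3 runs from 1.12 to 3.87, and the intervals of the other 7 include 0.

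The low ADAM values of shCtr replicate 2 were set beside transcript composition. Adam10 transcripts have 42.1% GC and those of Adam17 45.1%, against a median of 50.1% over the 12658 tested genes with a value. In shCtr replicate 2 the log2 CPM of Adam10 was 3.23 below the mean of the other shCtr libraries (-3.23), where tested genes within 2 percentage points of its GC content had a median of -2.24. For Adam17 the deviation was -2.72 and the median of genes of like GC content was -1.30. Timp3, at 46.8% GC, deviated by -0.86 and its genes of like content by -0.76. Timp1 (52.8% GC) deviated by 1.77 against 0.68, and Mmp14 (54.3% GC) by -0.60 against 0.91. In shOSGEP replicate 2 Timp3 was 1.47 above the other shOSGEP libraries, where genes of like GC content had a median of -0.05. Other members also departed from their median there, with Mmp15 at -0.96 against 0.18, Mmp14 at -0.81 against 0.25 and Adam10 at -1.36 against -0.51. Timp2 was at -0.42 against 0.25 and Timp1 at 0.81 against 0.22. Mmp2 was at 0.02 against 0.24 and Adam17 at -0.34 against -0.19. With offsets for GC content and transcript length the Log2FC of Timp3 was 2.41, and that of Adam10 and Adam17 was 0.16 and 0.53.

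**Figure D4:**
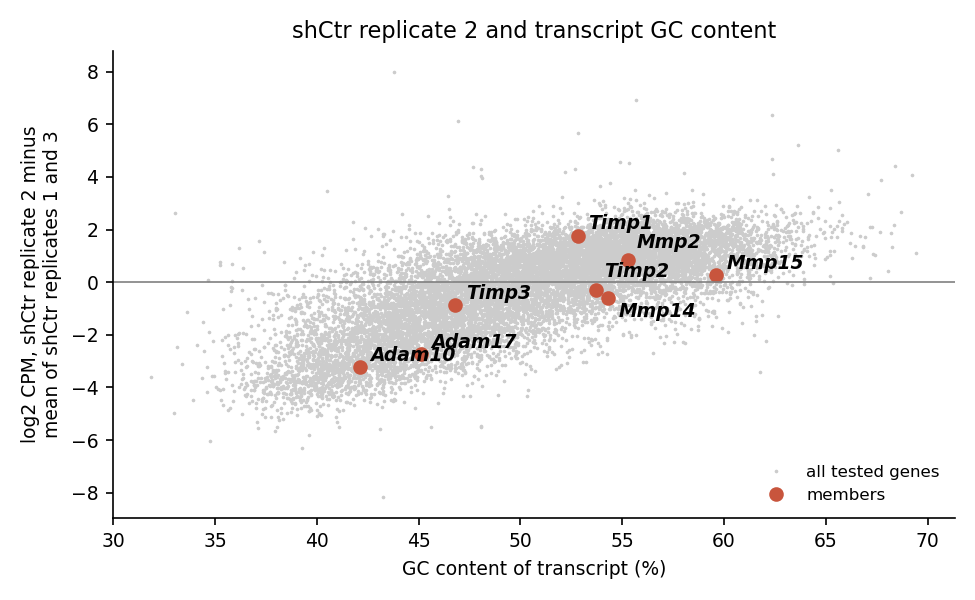
Deviation of shCtr replicate 2 from the mean of shCtr replicates 1 and 3 in log2 CPM against the GC content of the transcript (%), for all tested genes (grey) and the 8 tested members (red). The cloud rises with GC content, and Adam10 and Adam17 lie low at -3.23 and -2.72 while Timp1 lies high at 1.77.

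The same-numbered libraries gave a log2 ratio per pair for each member. Beside Timp3, no member had ratios of one sign in all 3 pairs. The ratios of Adam10 were 0.23, 1.98 and -0.04 and those of Adam17 were 0.50, 2.54 and -0.18, so that the pair numbered 2 carried most of the difference. Those of Mmp14 were 0.39, -0.06 and -0.09, and those of Timp2 were 0.11, -0.16 and -0.18.

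**Figure D5:**
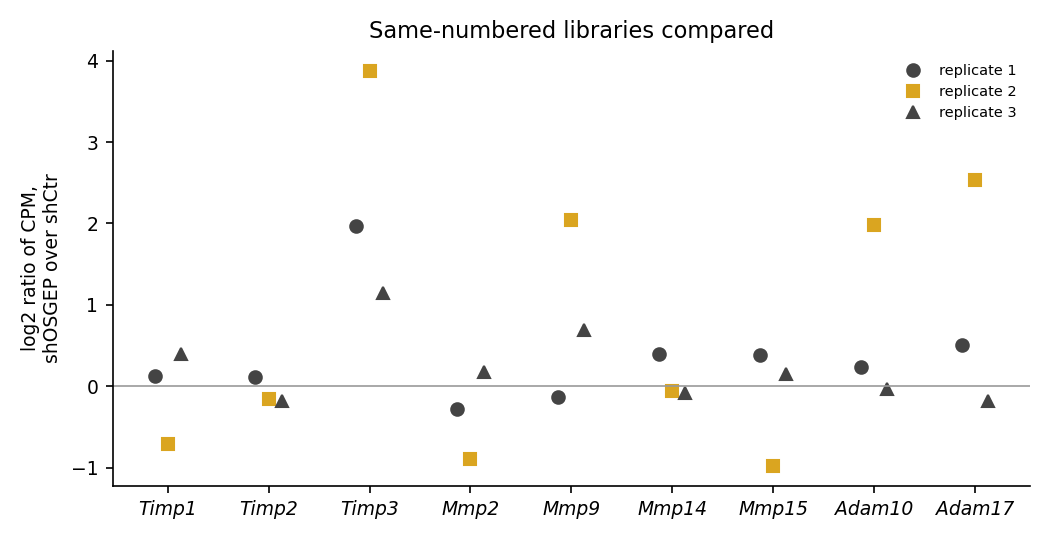
Log2 ratio of CPM (shOSGEP over shCtr) within each replicate number for the 9 members, with the pair numbered 2 in yellow. The 3 Timp3 ratios are 1.97, 3.88 and 1.14, and for each other member the ratios lie on both sides of 0.

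Ratios of a protease to an inhibitor within a library do not depend on its scaling, and are given as descriptions of levels in CPM per kb. The log2 ratio of Mmp14 to Timp2 was -1.48, -1.79 and -1.46 in shCtr and -1.21, -1.69 and -1.38 in shOSGEP, with overlap, so that Timp2 mRNA stayed above Mmp14 mRNA in all 6 libraries. The log2 ratio of Mmp14 to Timp3 was 1.79, 2.40 and 2.50 in shCtr and 0.22, -1.54 and 1.26 in shOSGEP, lower without overlap. Adam17 to Timp3 went from 0.89, -1.12 and 0.60 to -0.58, -2.46 and -0.72, with overlap through shCtr replicate 2. Adam10 to Timp3 went from 2.22, -0.31 and 1.92 to 0.48, -2.21 and 0.74, with overlap as well. These ratios use the Timp3 values already given and are no separate evidence.

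In order of level in shCtr per kb, the members ran from Timp2 over Mmp14 (28.1 ± 7.49 CPM per kb, SD, n = 3), Adam10 (21.5 ± 17.2), Timp1, Adam17 (8.76 ± 6.57), Timp3, Mmp15 (1.87 ± 0.324) and Mmp2 (1.03 ± 0.399) to Mmp9 (0.0645 ± 0.0108). Timp2 stood above every other member in each shCtr library. From Mmp14 to Timp3, neighbours in this order did not differ beyond their spread. Below Timp3, the values of Mmp15, Mmp2 and Mmp9 did not overlap with those of the gene before them. In shOSGEP Timp3 (34.3 ± 22.1) moved up to the range of Mmp14 (29.9 ± 8.81) and Adam10 (26.5 ± 15.8).

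ANN codons, the codons read by tRNAs that carry t6A, made up 20.5% (Mmp15) to 29.9% (Adam10) of the coding sequences of the members, and 27.5% in Timp3. Over 11509 tested genes with a complete coding sequence the median was 26.9%, with 20.3% and 32.3% as the 10th and 90th percentile, and all 9 members lay between these.

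For each tested member the gene with the most similar log2 CPM over the 6 libraries was sought among tested genes with a mean of at least 50 counts. For Timp3 this was Spry4, a feedback inhibitor of receptor tyrosine kinase signalling (Pearson r = 0.992), which was at 1.70, 1.03 and 1.71 CPM among shCtr libraries, against 3.95, 5.19 and 2.46 CPM among shOSGEP libraries. For Timp2 it was Bcl9 (0.989), for Mmp14 Ubr2 (0.988), for Mmp15 Sulf2 (0.989) and for Mmp2 Ldb1 (0.993). Timp1 was most like Ube2l6 (0.999), Adam10 most like Rab11fip2 (1.000) and Adam17 most like Zfp180 (0.999). Over 6 libraries such values are common, as 927 genes had an r above 0.95 with Timp1 and 1558 with Adam10, against 68 with Timp3. The points of all these correlations share the library composition of the pair numbered 2.

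The other genes of the system were taken from 8 lists of 149 genes, of which 92 were tested. Past the study threshold were 7, all higher in shOSGEP, against 1.59% of all tested genes in that direction. Without shOSGEP replicate 2 the number was 3 of 95, where 0.516% of all genes passed in either direction. With at least 10 counts required in every library, 6 of 77 passed, again all higher, where 1.83% of all genes passed in either direction. The median Log2FC of the 92 was 0.25, against -0.03 over all tested genes. Of 19 other metalloproteinases 14 were below detection and 4 were tested. Mmp28 had 3, 6 and 4 counts in shCtr and 15, 131 and 18 in shOSGEP (Log2FC 3.41, SE 0.977), and Mmp19 had 4, 6 and 2 against 15, 367 and 11 (Log2FC 4.76, SE 1.44). Both passed the filter on low counts through their shOSGEP values, so they had to differ to be tested, and without shOSGEP replicate 2 their Log2FC were 1.85 and 1.64. Mmp11, stromelysin 3, was at 3.65, 2.26 and 2.26 CPM across shCtr and at 6.70, 10.7 and 4.75 CPM across shOSGEP (Log2FC 1.44, SE 0.542). Its Log2FC without the pair numbered 2 was 0.95 (unadjusted p = 0.0771 in edgeR), no longer past the threshold.

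Reck, a membrane-anchored inhibitor of metalloproteinases, had a Log2FC of 1.04 (SE 0.517), with overlap and not past the threshold, and Timp4 had 3 to 12 counts. Of 29 other ADAM and ADAMTS genes 16 were tested and 0 passed that threshold. Adam19 had the smallest p among them (Log2FC 0.95, SE 0.442, without overlap), and with the replicate block it was past the threshold (unadjusted p = 0.0395 in edgeR). Adamts5 followed (1.81, SE 0.960), and Adamts1 had the highest level (0.85, SE 0.684). Without the pair numbered 2 the Log2FC of Reck was 0.56, that of Adamts5 0.29 and that of Adamts1 0.45. Among 11 tested partners and convertases of the sheddases 0 passed. Tspan14, a tetraspanin that carries ADAM10 to the surface, had a Log2FC of -0.62 (SE 0.387, without overlap). Tspan10 had -1.28 (SE 0.765), and -0.04 without the pair numbered 2. Among 10 tested genes of the plasminogen system and surface partners 0 passed, with Cav1, Plat and Cd63 at 1.35 (SE 0.625), -0.86 (SE 0.511) and -0.72 (SE 0.598). Cav1 was at 0.67 and Cd63 at -0.05 when the pair numbered 2 was left out.

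Among known substrates of ADAM10 and ADAM17, 3 of 23 tested genes passed the study threshold, all higher in shOSGEP, as did 1.59% of all tested genes. The receptor Notch3 was at 1.53, 0.787 and 2.86 CPM in shCtr, with 6.89, 9.03 and 7.04 CPM in shOSGEP (Log2FC 2.15, SE 0.608). The receptor tyrosine kinase Axl was at 10.1, 8.95 and 12.6 CPM among shCtr libraries, against 26.8, 85.4 and 18.2 CPM among shOSGEP libraries (Log2FC 2.04, SE 0.637). Csf1, the macrophage growth factor, had a Log2FC of 1.36 (SE 0.518) and was named after its values were seen. The groups did not overlap for these 3 genes, as for 3.49% of all tested genes with shOSGEP higher. Without the pair numbered 2 the Log2FC were 1.67 for Notch3, 0.99 for Axl and 0.60 for Csf1. Csf1 was then no longer past the threshold (unadjusted p = 0.0751 in edgeR), nor with the replicate block (0.0533). Aplp2 had the highest level (Log2FC -0.46, SE 0.451). Of 14 tested basement membrane genes Col4a5 passed (Log2FC 1.62, SE 0.617), and Fn1 and Hspg2 had 1.25 (SE 0.603) and 0.24 (SE 0.741) with overlap. Without the pair numbered 2 Col4a5 was at 0.95, still past the threshold, and Fn1 at 0.37. Of 13 tested AP-1, ETS and related regulators of metalloproteinase genes 0 passed, with Runx2, Egr1 and Ets1 at 1.14 (SE 0.683), 1.01 (SE 0.650) and -0.50 (SE 0.759). Runx2 and Egr1 were at 0.54 and 0.56 without the pair numbered 2.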

How the data were processed

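RNA of B16F10 cells infected with shCtr or shOSGEP was sequenced by the study as polyA RNA (TruSeq kit, paired reads of 100 bases, 3 infections per group). Per the methods and the submitters' processing notes, reads were trimmed with TrimGalore, aligned to GRCm38 with STAR 2.6.1d and quantified with Salmon 1.4.0. The values deposited by the authors are estimated counts per gene, written as whole numbers, without normalization. The annotation release is not given in the sources used here. Gene models were taken from GENCODE M21 (GRCm38), which held 99.4% of identifiers.

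Genes were kept by filterByExpr (minimum count 10, minimum total 15), scaled by TMM and tested with edgeR 4.0.16 (quasi-likelihood F-test, R 4.3.3, no block, two-sided, Benjamini-Hochberg over 12669 genes). The SE is the Log2FC divided by the square root of F. The edgeR, DESeq2 and limma-voom fits were tested on simulated data, but the added fit and the offsets with block were not. The simulated libraries varied less than these and held no GC trend, replicate effect or outlying pair. They therefore do not show how the fits behave on these data. For single genes the group means of log2(CPM + 0.5) were permuted over all 20 splits (exact permutation test, two-sided). Levels per length are CPM per kb of exonic length. Likeness and deviations used log2 CPM with a prior count of 2. All 9 members were named, and from each other list the 2 genes with the smallest p and the 1 with the highest level. The members and lists were chosen with earlier results of these data known.

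Deviations from group means correlated at 0.811, 0.557 and 0.196 between same-numbered libraries of the groups (3 pairs), so the replicate numbers were taken to pair the libraries. Between differently numbered libraries the correlations ran from -0.784 to 0.491. The highest of these, of shCtr replicate 3 with shOSGEP replicate 1, was above that of the pair numbered 3, so by deviations alone the pairing of replicate 3 is uncertain. In log2 CPM itself, shCtr replicate 3 correlated at 0.986 with shOSGEP replicate 3 and at 0.954 with shOSGEP replicate 1. Library names of the same replicate number end alike in both groups. The labels do not say what a number or an ending marks. Alternatives were DESeq2 1.42.0, limma-voom (limma 3.58.1) weighting libraries by quality, upper-quartile or RLE scaling, other filters, a replicate block, offsets for GC content and length (natural splines, 5 degrees of freedom each) and leaving out libraries. Limma-voom with a replicate block, and the Timp shares over the longest coding transcripts, were added after seeing the data.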

Additional observations from a re-analysis of the deposited data

How the results depend on the processing

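Timp3 kept its direction and the study threshold in all 19 alternative fits. Its adjusted p was under 0.05 in 1 of them, a limma-voom fit with library weights and the replicate block (Log2FC 1.76), chosen after seeing the data. That fit called 1 member, and 11.1% of all genes, and 30 genes of the other lists were past the study threshold in it, 4 of them lower, against 11.4% of all genes. It weighted the pair numbered 2 at 0.112 and 0.113 and borrowed 902.5 prior degrees of freedom. The replicate block alone gave Timp3 a Log2FC of 2.30 (unadjusted p = 0.0099 in edgeR) and changed no call for any member. With the block, 9 of the 92 tested genes of the other lists passed the study threshold, all higher, against 7 as reported. Of all genes 2.94% passed it with the block. The block ended the call of Csf1, and Adam19 was among the genes it added. Allowing an adjusted p of up to 0.1, edgeR called 0 members. For Osgep the adjusted p was under 0.05 in DESeq2 (Log2FC -3.32) and in the added fit (-2.23).

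Members other than Timp3 and Adam17 turned direction under some settings, always past no threshold, and the cause was not tested. With GC and length offsets, without and with the replicate block, the Log2FC was 0.06 and 0.07 for Timp1, 0.01 and 0.04 for Timp2, and 0.10 and 0.08 for Mmp15. Limma-voom with quality weights gave 0.29 for Timp1, 0.10 for Mmp2, -0.06 for Mmp14 and 0.03 for Mmp15, and with the block 0.19 for Timp1, 0.02 for Timp2 and 0.29 for Mmp15. Upper-quartile scaling gave 0.02 for Timp2 and 0.01 for Mmp15.

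Leaving out libraries gave -0.57 to 0.59 for Timp1, -0.17 to 0.07 for Timp2, -0.64 to -0.07 for Mmp2, -0.09 to 0.33 for Mmp14, -0.32 to 0.25 for Mmp15, -0.26 to 0.97 for Adam10, 0.11 to 1.22 for Adam17, 1.66 to 2.90 for Timp3 and -4.05 to -2.11 for Osgep. Genes of the other lists past the study threshold then numbered 3 (without shOSGEP replicate 2) to 11 (without shOSGEP replicate 3), against 0.516% and 2.98% of all genes. They numbered 16 with the offsets (1 lower, against 5.47% of all genes), 14 with offsets and block (4 lower, 6.87%), and 13 when low counts were not filtered out (0 lower, 2.75%), where 124 of them were tested. Of all genes 256 passed it as reported, and 67 (without shOSGEP replicate 2) to 1442 (weights and block) in the alternatives. Per kb of the longest coding transcript, Mmp14 was at 51.7 CPM and Timp3 at 10.5 CPM in shCtr. At 3 libraries per group, the 95% intervals of the tested members other than Timp3 reach as far as -1.70 (Timp1) and 2.27 (Adam17).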
